A study of Danio rerio with 3 samples.

Results

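Cerebellar granule neurons were picked out of 3 droplet libraries of zebrafish (Danio rerio) brain by their transcripts. A barcode counted as one when it had at least 100 detected genes, at least 1 UMI (unique molecular identifier, the tag of a single captured transcript) of fat2, and at least 1 UMI summed over the 7 companion genes zic1, zic2a, zic4, neurod1, vsnl1a, nebl and snap25b. That rule gave 162 granule neuron barcodes among 11207 barcodes with at least 100 genes and 13683 barcodes in all. They were 43 barcodes of the Zn10 library, 70 of the Zn15 library and 49 of the Ctrl library. Zn10 and Zn15 name the zinc treatments and Ctrl the control, with 1 library each. What 10 and 15 measure, how and for how long zinc was given, and the fishes' strain, genotype, age, sex and number are unstated in the labels, so Zn10 and Zn15 were not read as steps of a dose. With 1 library per treatment no difference between libraries could be tested, and every interval below is a 95% interval for counting error alone.

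Granule neurons are the small excitatory neurons that fill the granule layer of the cerebellum. They arise from the rhombic lip, receive mossy fibre input, are inhibited by Golgi cells, and send parallel fibres to the dendrites of Purkinje cells. fat2 (ENSDARG00000018923) encodes a giant atypical cadherin found on granule cell axons in mammals and used as a granule cell marker in zebrafish. The Zic genes encode zinc finger transcription factors of the granule lineage, and neurod1 a basic helix-loop-helix factor that granule cells of the mouse need in order to differentiate. vsnl1a encodes a neuronal calcium sensor, nebl an actin-binding protein and snap25b a SNARE protein of synaptic vesicle fusion.

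The granule neuron barcodes were shallow. They held 11235 UMIs in Zn10, 20605 in Zn15 and 15192 in Ctrl, with medians of 228, 220.5 and 223 UMIs per barcode, against 302, 297 and 272 UMIs in the other barcodes with at least 100 genes. One UMI of the summed granule neurons was therefore worth 89.0 CPM (UMIs scaled to a total of 1e+06) in Zn10, and 3 UMIs, used as the floor for a gene at 0, were worth 267 CPM in Zn10, 146 in Zn15 and 197 in Ctrl. No granule neuron barcode sequence occurred in a second library. Among all barcodes, 6 sequences were shared by Zn10 and Ctrl, 8 by Zn15 and Ctrl, and 4 by Zn15 and Zn10. Doublets were not removed and no doublet caller was run.

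A few deep barcodes stood apart and touch several results. The deepest Ctrl granule neuron barcode had 2160 UMIs, 14.2% of all UMIs of the Ctrl granule neurons, and held 106 of their 111 oligodendrocyte UMIs and 76 of their 316 heat shock UMIs. The deepest Zn15 barcode had 1393 UMIs and held 46 of the 50 oligodendrocyte UMIs there. Another Zn15 barcode of 738 UMIs held 88 of 326 heat shock UMIs. All 3 barcodes had 1 UMI of fat2. In Zn10 the deepest barcode had 668 UMIs and no oligodendrocyte UMI. Where a result below rests on such barcodes, the share held by 1 barcode or the value without it stands beside it.

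The genes of the rule describe who the members are, and their values support nothing else. fat2 contributed 64 UMIs in Zn10, 90 in Zn15 and 58 in Ctrl granule neurons, and 122 of the 162 barcodes had exactly 1 fat2 UMI. zic1 was found in 46.5% of Zn10, 44.3% of Zn15 and 44.9% of Ctrl granule neuron barcodes, against 7.30% of all other barcodes. zic2a was found in 7 Zn10, 21 Zn15 and 7 Ctrl granule neurons, and neurod1 in 30.2% of Zn10, 32.9% of Zn15 and 20.4% of Ctrl granule neurons. Of the 162 barcodes, 100 had a UMI of zic1, zic2a or zic4, another 18 had neurod1 without those, 22 had vsnl1a without any of these, and 22 entered through snap25b or nebl alone. Exactly 1 companion UMI admitted 46 barcodes.

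The granule neuron label was checked against markers that the rule did not use. Of 23 granule neuron markers outside the rule, 17 were detected, and their 200 UMIs came to 4252 CPM in granule neurons (3683 to 4884) against 1689 CPM in other barcodes, a ratio of 2.52. etv1, an ETS transcription factor of maturing granule cells in the mouse, led them with 1869 CPM in Zn10, 1165 in Zn15 and 987 in Ctrl, against 331 CPM over the other barcodes. In Zn10, 1 barcode held 28.6% of the etv1 UMIs. zic5 was 6.14-fold and pax6b, a paired-box factor of the granule lineage, 3.33-fold above the other barcodes, both on 19 UMIs and chosen after their values were seen. In Ctrl alone these 2 genes had 1 UMI each, at 1.11 and 0.612 of the other barcodes. Some other markers were too sparse to place. zic2b was at 0.976 (0.117 to 3.58) and pax6a at 0.688 (0.187 to 1.77) of the other barcodes, on 2 and 4 UMIs. grm4 and cntn2 had no UMI in granule neurons, and only 8.51 and 3.87 CPM in the other barcodes. cbln1, whose secreted product links parallel fibres to Purkinje cells, was 4.16-fold above them and barhl1a, a rhombic lip homeobox gene, 3.88-fold, on 12 and 8 UMIs. gabra6a and gabra6b, which encode the granule cell GABA receptor subunit in mammals, had no UMI in granule neurons and only 2.32 and 0.774 CPM elsewhere, so they could not serve as a check at this depth.

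Markers of inhibitory neurons and radial glia were scarce, those of microglia and oligodendrocytes less uniformly so. gad1b, gad2 and slc32a1, the genes for GABA synthesis and vesicular loading, had 0 UMIs over all 162 granule neuron barcodes. The interval of 0 UMIs reaches 78.4 CPM, against 96.7, 251 and 88.7 CPM for these genes in the other barcodes. The list of 10 GABAergic markers had 0 UMIs in Zn10, 2 in Zn15 and 6 in Ctrl granule neurons. The vesicular glutamate transporter gene slc17a6b was present at 468 CPM in granule neurons and 500.3 CPM in other barcodes, while slc17a7a had 2 UMIs. Radial and Bergmann glia markers stood at 0.240 of their level in other barcodes, and glula, the glial glutamine synthetase gene, at 0.268. The list of 13 granule progenitor and cell cycle genes had 18 UMIs in granule neurons, at 0.535 of the other barcodes (0.317 to 0.847). The ratio was 0.926 in Zn10, 0.501 in Zn15 and 0.210 in Ctrl. mki67, a gene of dividing cells, had 5 UMIs, at 1.18 (0.382 to 2.79). atoh1a, atoh1c and pcna had no UMI in granule neurons, but their ratio intervals reached 125, 17.7 and 1.26. Their absence could therefore not separate granule neurons from the other barcodes. Microglia and macrophage markers had 0 UMIs in Zn10, 13 in Zn15 and 9 in Ctrl granule neurons, 1.13 times the other barcodes in Zn15 (0.599 to 1.94) and 1.05 times in Ctrl (0.476 to 1.99). They lay in 3 Zn15 barcodes (4.29%) and 3 Ctrl barcodes (6.12%), against 8.92% and 8.91% of the other barcodes. At least 8 of the 13 Zn15 UMIs, those of il1b, lay in 1 barcode. Oligodendrocyte markers stood at 0.0983 of the other barcodes in Zn10, 0.344 in Zn15 and 0.719 in Ctrl, and at 0.105, 0.0295 and 0.0378 without the deepest granule neuron barcode of each library, an alternative added after the values were seen.

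Of 159 genes with at least 30 UMIs in granule neurons, 50 outside the rule were more than 1.5-fold above the other barcodes in each library. zgc:92107, which the gene name table pairs with arhgap46a, led with 1424 CPM in Zn10, 679 in Zn15 and 527 in Ctrl granule neurons, against 53.2, 50.3 and 46.6 CPM in the other barcodes of the same libraries. It was detected in 20.4% of granule neurons and 1.56% of the other barcodes. dlg1, a synaptic scaffold gene, followed at 623, 922 and 592 CPM in Zn10, Zn15 and Ctrl granule neurons and 14.3-fold over the other barcodes in all. These values describe the barcodes chosen, since the rule and the genes come from the same counts, and the other barcodes include glia and other cells that are not neurons.

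cplx2 (ENSDARG00000061918), a complexin that binds the SNARE complex, was 8.82-fold higher in granule neurons. pcloa and rims1a, scaffolds of the active zone, were 7.10-fold and 5.85-fold higher, and nptx1l, a secreted neuronal pentraxin gene, 7.76-fold. The whole list of synaptic vesicle machinery genes summed to 17356 CPM in Zn10, 17277 in Zn15 and 15469 in Ctrl granule neurons, against 6066, 3743 and 5228 CPM in the other barcodes. A UMI of that list was present in 95.1% of granule neurons and 46.7% of other barcodes. Among the other leading genes, syne1b, a nuclear envelope spectrin-repeat gene, was 8.27-fold higher, rbfox3a, the splicing factor known as NeuN, 7.85-fold and nat16, an acetyltransferase gene, 6.22-fold.

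Against neurons the ratios were smaller. Among 3932 other barcodes with a UMI of snap25a or elavl4, a comparison added after the values were seen, the granule neurons had 10.7 times the zgc:92107 CPM (7.20 to 15.5), 8.28 times that of dlg1 (5.54 to 12.1) and 4.82 times that of cplx2 (3.37 to 6.73). pcloa stood at 4.02 times (2.97 to 5.34), rims1a at 3.81 times (2.52 to 5.57) and nptx1l at 5.18 times (3.66 to 7.16). zbtb18, a transcriptional repressor gene, was more abundant than any of the 9 leading genes outside the rule. It had a UMI in 72.8% of granule neurons and 23.7% of other barcodes, with 7506 CPM in granule neurons against 1413 CPM in the other barcodes and 1688 CPM in those neurons. In barcodes with at least 200 genes the log2 ratio of zgc:92107 to other barcodes was 0.31, with a ratio interval of 0.0310 to 7.13 that left it undetermined.

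**Figure D1:**
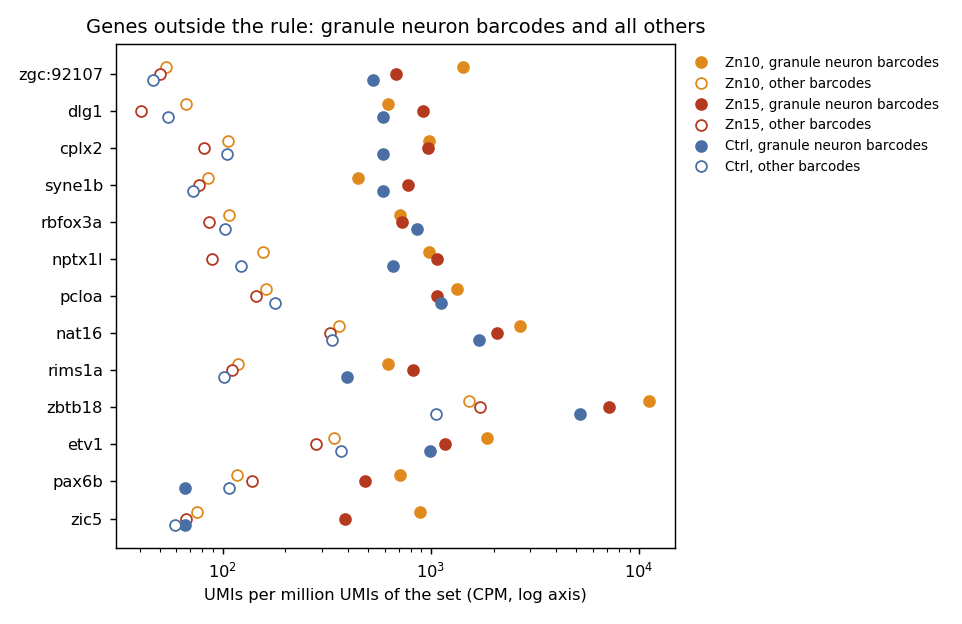
CPM (log axis) of genes outside the rule in granule neuron barcodes (filled points) and all other barcodes with at least 100 genes (open points), by library. The 9 leading genes and zbtb18 lay above the other barcodes in every library, whereas pax6b and zic5 in Ctrl rested on 1 UMI each.

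Channels and receptors were thinly covered. GABA and glycine receptor genes, with 47 UMIs, stood at 3.0 times their summed level in the other barcodes (2.19 to 4.01), but at 1.1 times in Zn10 (0.355 to 2.59), 4.64 in Zn15 and 3.01 in Ctrl. Potassium channel genes, with 55 UMIs, stood at 2.78 times their level in the other barcodes (2.09 to 3.64). gabrb2a, a GABA receptor beta subunit gene, supplied 35 of the 47 receptor UMIs. Some further genes were chosen after their values were seen. kcnd2, a transient potassium channel gene, was 4.27-fold above the other barcodes and 2.66-fold above the neurons with snap25a or elavl4. grin1b, the obligatory NMDA receptor subunit gene, was 3.74-fold and 2.19-fold above them on 28 UMIs. The cadherin fat1a, a relative of fat2, was 5.29-fold above the other barcodes and 3.97-fold above those neurons, with 8, 10 and 8 UMIs in Zn10, Zn15 and Ctrl granule neurons.

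Ribosomal protein and stress transcripts were lower in the granule neurons than in the other barcodes, which include glia. No comparison of these sums with other neurons alone is given, so the difference may not be particular to granule neurons. The 83 ribosomal protein genes summed to 11927 CPM in Zn10, 8881 in Zn15 and 9413 in Ctrl granule neurons, against 18342, 22343 and 19191 CPM in the other barcodes. In Zn10, 1 granule neuron barcode held 52 of the 134 ribosomal UMIs (38.8%). Over the libraries the ratio was 0.485 (0.441 to 0.531). Heat shock genes stood at 0.631 (0.585 to 0.679) of the other barcodes, with 0.320 in Zn10, 0.751 in Zn15 and 0.725 in Ctrl. Antioxidant genes stood at 0.549 and apoptosis and p53 target genes at 0.625. Immediate early genes, the transcripts induced by activity or handling, did not stand apart as a sum, at 0.959 (0.843 to 1.09). The sum does not speak for each gene. The immediate early gene npas4a, chosen after its values were seen, had 34 UMIs in granule neurons. It was at 723 CPM there against 151 CPM in the other barcodes, with a ratio interval of 3.29 to 6.78. malat1, a nuclear non-coding RNA, took 22.6% of granule neuron UMIs in Zn10, 28.5% in Zn15 and 26.3% in Ctrl, against 26.3%, 31.5% and 28.6% in the other barcodes.

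**Figure D2:**
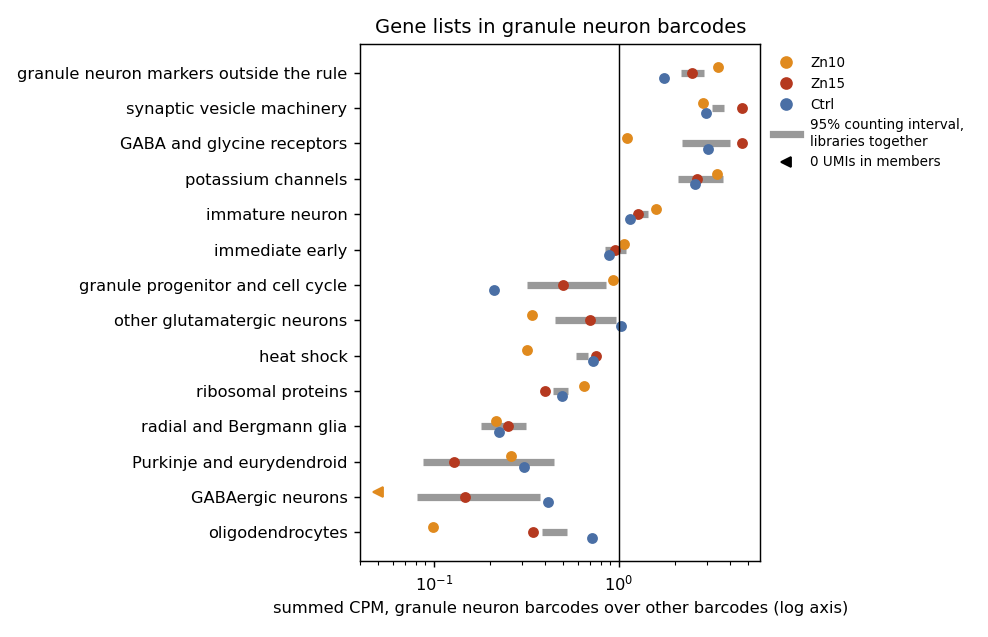
Summed CPM of 14 gene lists in granule neuron barcodes divided by that in the other barcodes (log axis), with a point per library and a grey bar for the interval over the libraries together. Over the libraries together synaptic vesicle genes were at 3.43, GABAergic markers had 0 UMIs in Zn10, and oligodendrocyte markers ran from 0.0983 in Zn10 to 0.719 in Ctrl, where 1 barcode held most of them.

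Granule neurons with and without a Zic transcript were compared in the leading genes, whose intervals mostly included 1. The 100 barcodes with a Zic UMI had a median of 220.5 UMIs and the 62 without had 225. zbtb18 was at 7827 and 6971 CPM in the barcodes with and without Zic, a ratio of 1.12 (0.898 to 1.41), and rbfox3a at 783 and 737 CPM. rims1a was 2.40-fold higher in barcodes with Zic (0.956 to 7.18), on 24 and 6 UMIs. pcloa was at 0.60 (0.339 to 1.06), syne1b at 0.686 (0.314 to 1.52) and cplx2 at 1.40 (0.690 to 3.02). Synaptic vesicle genes were 1.28-fold higher in barcodes with Zic (1.1 to 1.49), in 2 of 3 libraries. Heat shock genes were 1.21-fold higher there (1.04 to 1.42), also in 2 of 3 libraries. Every barcode without Zic entered through neurod1, vsnl1a, nebl or snap25b, so the rule itself makes these groups unlike. What sets them apart was not tested. vsnl1a was lower at 0.540 (0.309 to 0.941), but vsnl1a itself admitted barcodes without Zic, so its ratio follows from the rule.

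The barcodes near the thresholds of the rule differed in what they held. Just inside, 34 granule neuron barcodes lay fewer than 10 genes above the minimum of 100. Just outside, 27 barcodes with 90 to 99 genes had fat2 and a companion, 56 barcodes had fat2 without a companion, and 2416 had a companion without fat2. The granule neuron markers outside the rule came to 5808 CPM (4204 to 7824) in the 52 barcodes under 100 genes that had fat2 and a companion, which is above the 4252 CPM of the granule neurons, and no GABAergic marker was found in them. In the 56 barcodes with fat2 alone these markers came to 2900.4 CPM and oligodendrocyte markers to 11718 CPM. In the 2416 barcodes with a companion alone they came to 3229 CPM, with GABAergic markers at 1256 CPM. Granule neuron barcodes with 2 or more fat2 UMIs had 5382 CPM of the granule markers and those with 1 fat2 UMI 3917 CPM.

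The rule was rarely met by oligodendrocyte barcodes, and microglia were too few to judge. Of 1273 oligodendrocyte barcodes, defined by at least 5 UMIs of the oligodendrocyte list, 11 had a fat2 UMI, or 0.864% (0.432 to 1.54), and 3 met the rule, or 0.236% (0.0486 to 0.687). Over all barcodes with at least 100 genes the shares were 1.95% for fat2 and 1.45% for the rule, at median depths of 285 and 287 UMIs. Of 103 microglia and macrophage barcodes 1 met the rule, or 0.971% (0.0246 to 5.29), an interval that included the 1.45%. With every barcode thinned to 200 UMIs, 0 of 1032 oligodendrocyte barcodes and 59 of 8887 barcodes in all met the rule. The rule asks for a companion UMI as well, so its share in oligodendrocytes does not show how often fat2 itself occurred there. For fat2 alone the share was 0.864% in oligodendrocyte barcodes and 1.95% over all barcodes with at least 100 genes. Whether a single barcode with 1 fat2 UMI was a granule neuron was not tested.

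Granule neuron barcodes made up 1.75% of the Zn10 library (1.27 to 2.35, 43 of 2459 barcodes), 1.70% of Zn15 (1.33 to 2.14, 70 of 4119) and 1.06% of Ctrl (0.784 to 1.40, 49 of 4629). The share in Zn10 was 1.65 times that in Ctrl (1.07 to 2.54) and the share in Zn15 was 1.61 times that in Ctrl (1.1 to 2.36). Zn15 and Zn10 differed by less than counting error, with a ratio of 0.972 (0.655 to 1.46). After thinning to 200 UMIs the shares were 0.955% in Zn10, 0.774% in Zn15 and 0.396% in Ctrl, and 469 Zn10, 761 Zn15 and 1090.0 Ctrl barcodes were too shallow to enter.

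The higher share in the zinc libraries varied in size with the gene minimum, and at 200 genes Zn10 was level with Ctrl. Counting every deposited barcode without a gene minimum, an alternative added after the values were seen, the rule was met by 1.65% in Zn10, 1.80% in Zn15 and 1.30% in Ctrl, with ratios to Ctrl of 1.27 (0.859 to 1.85) for Zn10 and 1.38 (1.01 to 1.91) for Zn15. Of the barcodes under 100 genes, 4 of 391 in Zn10, 23 of 1035 in Zn15 and 25 of 1050 in Ctrl had fat2 and a companion. With at least 200 genes the shares were 0.895% in Zn10 (9 of 1006 barcodes), 1.5% in Zn15 (21 of 1404) and 0.90% in Ctrl (13 of 1444), so that the Zn10 share was 0.994 times that in Ctrl (0.375 to 2.51). The Zn15 share stayed above that in Ctrl there, with intervals that overlapped (0.928 to 2.28 and 0.480 to 1.53). Over whole libraries, fat2 itself was at 86.2 CPM in Zn10, 88.7 in Zn15 and 76.5 in Ctrl, ratios to Ctrl of 1.13 (0.845 to 1.49) and 1.16 (0.908 to 1.48). Fewer captured granule neurons and fewer transcripts per granule neuron could not be told apart, nor could treatment and library.

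**Figure D3:**
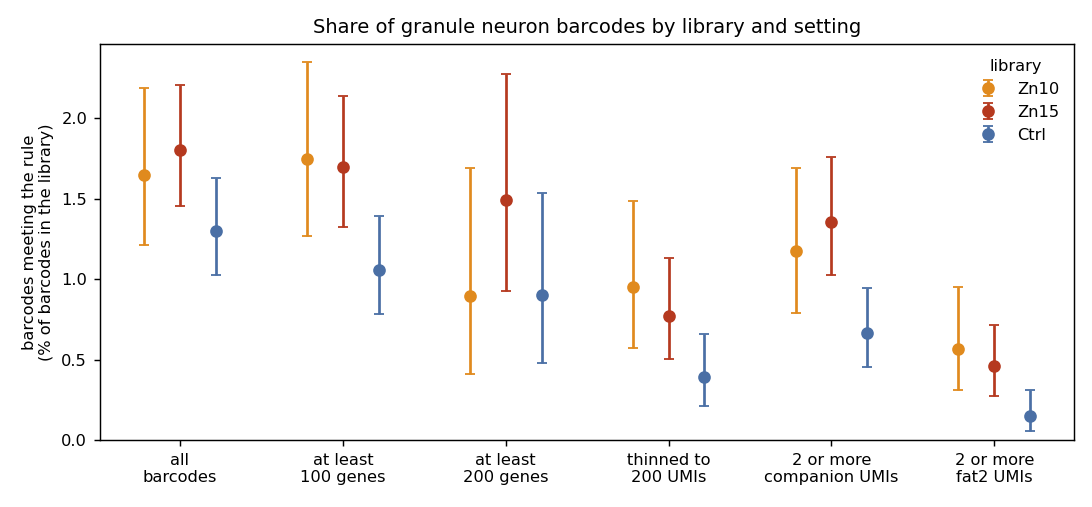
Percentage of barcodes that met the granule neuron rule in Zn10, Zn15 and Ctrl under 6 settings, with 95% exact binomial intervals that cover counting error only. Zn10 and Zn15 lay above Ctrl in 5 of the 6 settings, with intervals that overlapped Ctrl at 100 genes, and at 200 genes Zn10 (0.895%) and Ctrl (0.90%) were level.

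The granule neuron barcodes of the zinc libraries carried more of the granule markers that the rule did not use. Those markers had 67 UMIs in Zn10, 91 in Zn15 and 42 in Ctrl granule neurons, or 5964, 4416 and 2765 CPM. The ratio to Ctrl was 2.16 in Zn10 (1.45 to 3.25) and 1.6 in Zn15 (1.1 to 2.36), while in the other barcodes it was 1.11 and 1.12. A marker UMI was found in 34 of 43 Zn10, 52 of 70 Zn15 and 26 of 49 Ctrl granule neurons. Thinned to 130 UMIs, a depth every granule neuron barcode reached, the shares were 48.8% in Zn10, 60.0% in Zn15 and 26.5% in Ctrl, against 20.1%, 21.3% and 18.3% in the other barcodes. A pair of these genes was chosen after their values were seen. zic5 had 10, 8 and 1 UMIs and pax6b 8, 10 and 1 UMIs in Zn10, Zn15 and Ctrl granule neurons.

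The UMIs that admitted the barcodes differed between libraries, which describes the choice of members. Barcodes with 2 or more fat2 UMIs numbered 14 in Zn10, 19 in Zn15 and 7 in Ctrl. Exactly 1 fat2 UMI was seen in 67.4% of Zn10, 72.9% of Zn15 and 85.7% of Ctrl granule neurons, and exactly 1 companion UMI in 32.6%, 20.0% and 36.7%. Within the barcodes with 2 or more fat2 UMIs, the granule markers outside the rule were at 5884 CPM in Zn10, 5092 in Zn15 and 5018 in Ctrl, on 24, 27 and 7 UMIs. The log2 ratios to Ctrl were then 0.23 in Zn10 (ratio interval 0.490 to 3.22) and 0.02 in Zn15 (0.431 to 2.76). The part of free transcripts in the Ctrl granule neurons was not tested.

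In the comparison of genes between Zn10 and Ctrl granule neurons, 71 genes outside the rule had at least 30 UMIs over both libraries. At least 1.5-fold higher in Zn10 were 21 of them (29.6%) and at least 1.5-fold lower 14 (19.7%), and the counting interval left out 1 for 6 and 8 of these. The median log2 ratio of the genes detected in both libraries was 0.25. Scaled to that median, 10 genes were higher and 17 lower, so the balance of directions turned with the scaling, and single genes are best read against the median.

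tnrc18 had the highest ratio of Zn10 to Ctrl among the genes measured. It had 24 UMIs in Zn10 and 10 in Ctrl granule neurons, 2136 and 658 CPM, a log2 ratio of 1.70 (ratio interval 1.5 to 7.6). It was found in 16 of 43 Zn10 and 9 of 49 Ctrl granule neurons, and in the other barcodes its log2 ratio was -0.11. zbtb18 had 126 UMIs in Zn10 and 79 in Ctrl, 11215 and 5200.1 CPM, a log2 ratio of 1.11, against 0.52 in the other barcodes. The zbtb18 log2 ratio was 0.69 without granule neurons holding oligodendrocyte or microglia UMIs and 0.49 at 130 UMIs per barcode, where the interval included 1 (0.958 to 2.06). nrxn1a, the presynaptic adhesion gene, had a log2 ratio of 0.83, khdrbs1a, an RNA-binding splicing regulator gene, 1.11, and si:ch73-1a9.3, which the name table pairs with the nucleosome-binding gene hmgn1b, 0.84. At 130 UMIs nrxn1a was found in 46.5% of Zn10 and 24.5% of Ctrl granule neurons. egr1, an immediate early gene, had a log2 ratio of 1.57, but 1 Zn10 barcode held 36.4% of its Zn10 UMIs.

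The sum of the immature neuron list was 16021 CPM in Zn10 and 10269 CPM in Ctrl granule neurons, 1.56-fold (1.25 to 1.95), against 1.12-fold in the other barcodes. Of 4 measured genes of that list, 2 were at least 1.5-fold higher, where 29.6% of all genes measured were, so the count of 4 genes shows nothing particular. basp1 was at a log2 ratio of 1.06 and stmn1b at 0.60, and elavl4 and elavl3 were at 0.38 and 0.35. The counting interval of each of these 4 genes included 1.

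Heat shock transcripts were lower in Zn10 granule neurons than in Ctrl granule neurons. All 5 measured genes of the list were at least 1.5-fold lower, where 14 of all 71 genes measured were (19.7%). Their median log2 ratio was -1.78 against 0.24 over all genes tested. The list had 80 UMIs in Zn10 and 316 in Ctrl, 7121 and 20800.4 CPM, a ratio of 0.342 (0.264 to 0.439), and in the other barcodes the ratio was 0.777. hsp70l, an inducible Hsp70 gene, had 13 UMIs in 8 Zn10 barcodes and 80 UMIs in 14 Ctrl barcodes, a log2 ratio of -2.19, and 1 barcode held 28.8% of the Ctrl UMIs. The log2 ratio of hsp70l was -2.23 without the top barcode of each library and -1.35 without granule neurons holding 2 or more oligodendrocyte or microglia UMIs. hsp70.3 had 11 and 51 UMIs, a log2 ratio of -1.78, and hsp90aa1.2 15 and 50 UMIs, a log2 ratio of -1.30, though hsp90aa1.2 was at 0.19 when barcodes were thinned to 130 UMIs. The hsp70 copies resemble each other, and the split of reads among them is uncertain.

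The size of that difference rested in part on single barcodes. Without granule neurons holding 2 or more oligodendrocyte or microglia UMIs, the summed log2 ratio was -0.83 (ratio interval 0.422 to 0.742) in place of -1.55. At 130 UMIs per barcode it was -1.03, and in barcodes with 2 or more fat2 UMIs, where Ctrl had 7 heat shock UMIs, it was -0.03 (0.397 to 2.74). Per barcode, the median heat shock share was 0.489% of UMIs in Zn10, 0.112% in Zn15 and 0.645% in Ctrl. The part of mixed droplets in the ratio was not tested.

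**Figure D4:**
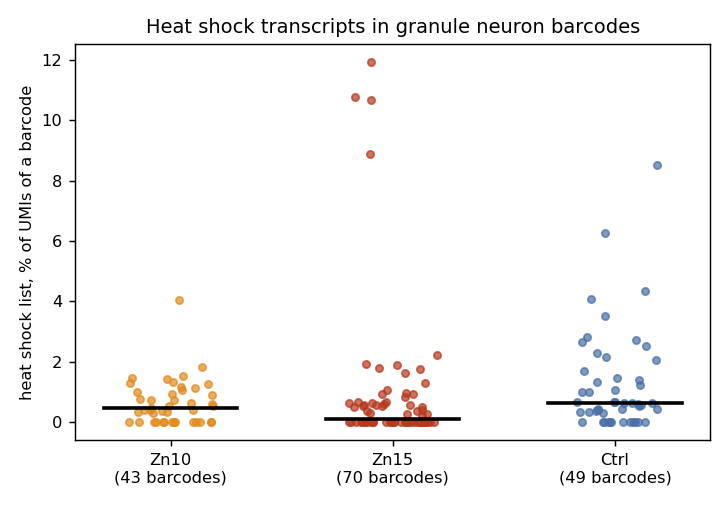
Heat shock transcripts as a percentage of the UMIs of each granule neuron barcode (points), with the library median as a black line (0.489% in Zn10, 0.112% in Zn15, 0.645% in Ctrl). In Zn15, 4 barcodes above 5% held 226 of 326 heat shock UMIs, and in Ctrl 2 such barcodes held 83 of 316.

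Single genes outside the heat shock list were lower in Zn10 as well. eif4a1a, an RNA helicase gene of translation initiation, had 8 UMIs in Zn10 and 30 in Ctrl granule neurons, a log2 ratio of -1.47, against 0.11 in the other barcodes. At 130 UMIs per barcode it was found in 11.6% of Zn10 and 16.3% of Ctrl granule neurons, whose intervals overlapped. map1ab, a microtubule-associated protein gene, had 13 and 36 UMIs, a log2 ratio of -1.03. sqstm1, the autophagy adaptor gene, had 5 and 26 UMIs, and 1 Ctrl barcode held 30.8% of the Ctrl UMIs. Without the top barcode of each library the log2 ratio of sqstm1 was -2.18. Mitochondrially encoded transcripts, taken as symbols that start with mt-, were at 0.338 of Ctrl (0.151 to 0.688) in Zn10 granule neurons. In the other Zn10 barcodes they were at 0.398. The mt- list had 10 UMIs in Zn10 and 40 in Ctrl granule neurons, and its ratio covers symbols of that spelling alone. NC_002333.4, a symbol that this list could not take in, had 28 UMIs in Zn10 and 43 in Ctrl granule neurons. Its log2 ratio was -0.18 there against -1.41 in the other barcodes, a difference of 1.22 (0.517 to 1.93). plp1b, a myelin gene, had 0 UMIs in Zn10 and 35 in Ctrl granule neurons, and 97.1% of the Ctrl UMIs lay in 1 barcode, without which too few were left for a ratio.

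Between Zn15 and Ctrl granule neurons, 106 genes were measured. At least 1.5-fold higher in Zn15 were 16 (15.1%) and at least 1.5-fold lower 18 (17%), with the interval leaving out 1 for 6 in each direction. The median log2 ratio was 0.09. The Zn15 and Zn10 comparisons share the Ctrl barcodes, so they are not independent of each other.

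nova2, a neuronal splicing factor gene, had 53 UMIs in 39 of 70 Zn15 barcodes and 23 UMIs in 19 of 49 Ctrl barcodes, a log2 ratio of 0.76 (ratio interval 1.02 to 2.90). Thinned to 200 UMIs, its log2 ratio was -0.10. gpm6ab, a neuronal membrane glycoprotein gene, had 65 and 29 UMIs in Zn15 and Ctrl, a log2 ratio of 0.72, against -0.27 in the other barcodes. The direction of gpm6ab turned to -0.26 with at least 200 genes and to -0.25 with 2 or more fat2 UMIs. nat8l, which makes N-acetylaspartate in neurons, had 33 and 11 UMIs, a log2 ratio of 1.15 (1.09 to 4.85), against 0.13 in the other barcodes, but -1.19 in granule neurons with 2 or more fat2 UMIs. nat8l was found in 21.4% of Zn15 and 12.2% of Ctrl granule neurons at 130 UMIs. zbtb18 had 148 UMIs in Zn15 and 79 in Ctrl, 7183 and 5200.1 CPM, a log2 ratio of 0.47 in granule neurons and 0.70 in the other barcodes. Without granule neurons holding 2 or more oligodendrocyte or microglia UMIs it was 0.24, with an interval that included 1 (0.890 to 1.58). CR383676.3, paired with si:ch211-276i12.12, had a log2 ratio of 0.49, and si:ch73-1a9.3 one of 0.63.

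Synaptic vesicle genes were level between Zn15 and Ctrl granule neurons and lower in the other Zn15 barcodes. snap25a, a SNARE gene, had 3931 CPM in Zn15 and 3884 CPM in Ctrl granule neurons, a log2 ratio of 0.02, against -0.75 in the other barcodes, a difference of 0.77 (0.27 to 1.26). The synaptic vesicle list had a ratio of 1.12 (0.945 to 1.32) in granule neurons and 0.716 in the other barcodes. sypb, a synaptophysin gene, had 23 and 8 UMIs in Zn15 and Ctrl granule neurons, a log2 ratio of 1.08 whose interval included 1 (0.915 to 5.48), against -0.87 elsewhere. The other barcodes mix many cell types, whose proportions differ between libraries.

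map1ab had 16 UMIs in Zn15 and 36 in Ctrl granule neurons, a log2 ratio of -1.61 (0.170 to 0.606), against -0.52 in the other barcodes. At 130 UMIs it was found in 7 of 70 Zn15 and 11 of 49 Ctrl granule neurons. eif4a1a had 20 and 30 UMIs, a log2 ratio of -1.02, against 0.22 in the other barcodes, and btg1, an antiproliferative gene, 15 and 23 UMIs, a log2 ratio of -1.06. hsp70l had 44 UMIs in 6 Zn15 barcodes and 80 UMIs in 14 Ctrl barcodes, a log2 ratio of -1.30, which was -0.65 (0.386 to 1.06) without granule neurons holding 2 or more oligodendrocyte or microglia UMIs. plp1b and cd59, with log2 ratios of -2.11 and -1.79, had 97.1% and 96.4% of their Ctrl UMIs in 1 barcode, without which too few were left for a ratio.

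Heat shock transcripts of Zn15 granule neurons sat in few barcodes. The list had 326 UMIs in Zn15 and 316 in Ctrl, a ratio of 0.761 (0.650 to 0.891), close to the 0.734 of the other barcodes. Without the 4 Zn15 and 2 Ctrl barcodes above 5% heat shock UMIs, it stood at 5409 CPM in Zn15 and 16506 CPM in Ctrl. That cut was made on the heat shock share itself. No heat shock UMI was found in 35 of 70 Zn15 and 12 of 49 Ctrl granule neurons. At 130 UMIs the share with a heat shock UMI was 48.8% in Zn10, 35.7% in Zn15 and 57.1% in Ctrl, against 75.7%, 71.9% and 82.5% in the other barcodes. hsp70.1 and sqstm1 had log2 ratios of 1.69 and 1.03, but 1 Zn15 barcode held 48.6% and 56.9% of their Zn15 UMIs. Without the top barcode of each library hsp70.1 was at 1.24 (0.845 to 8.14) and sqstm1 at 0.34 (0.685 to 2.40). Without granule neurons holding oligodendrocyte or microglia UMIs, the summed log2 ratio was -0.07 (0.767 to 1.18), and in barcodes with 2 or more fat2 UMIs it was 1.29 (1.12 to 6.32), on 65 Zn15 and 7 Ctrl UMIs.

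**Figure D5:**
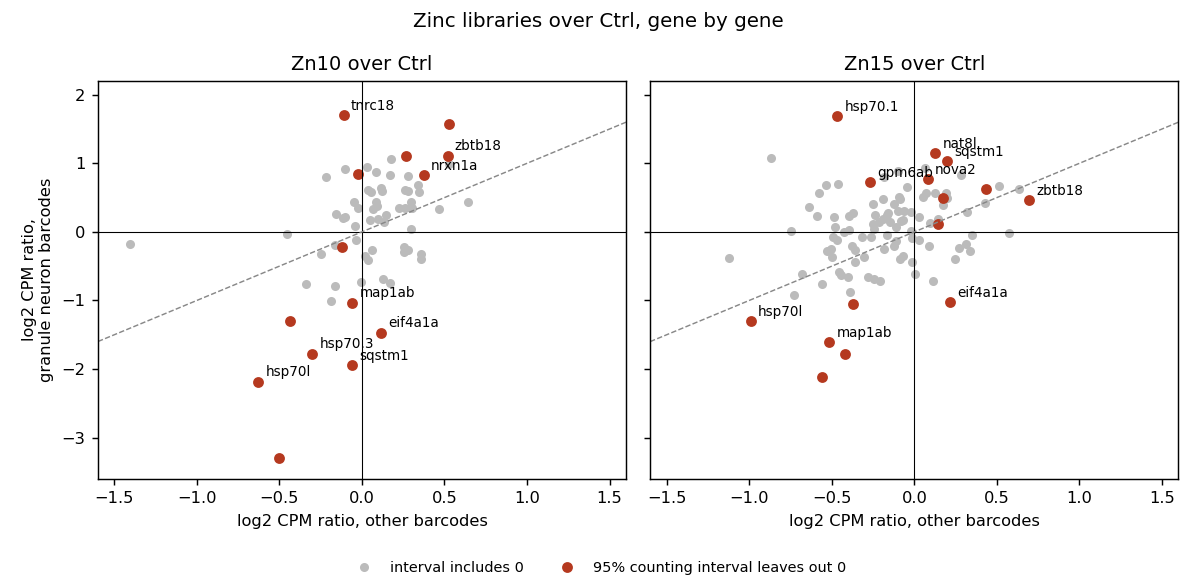
log2 CPM ratios of genes outside the rule in granule neuron barcodes (vertical) and in all other barcodes (horizontal), for Zn10 over Ctrl and Zn15 over Ctrl, with the dashed line where both are equal. map1ab and eif4a1a lay below 0 in granule neurons in both panels, with eif4a1a at 0.11 and 0.22 in the other barcodes, while zbtb18 lay above 0 in both sets of barcodes.

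Zinc handling genes were barely covered. mt2, the metallothionein gene that zinc induces in fish, had 6 UMIs in Zn10, 3 in Zn15 and 14 in Ctrl granule neurons. The 17 listed metallothionein and zinc transporter genes together had 8, 13 and 21 UMIs, and the Zn10 sum was 0.515 of the Ctrl sum (0.197 to 1.21), the Zn15 sum 0.456 of it (0.210 to 0.955), against 0.703 and 0.610 in the other barcodes. Thinned to 130 UMIs, the list was found in 2, 3 and 4 granule neurons of Zn10, Zn15 and Ctrl, too few to compare.

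Between Zn15 and Zn10 granule neurons 93 genes were measured, of which 15 were at least 1.5-fold higher in Zn15 (16.1%) and 22 at least 1.5-fold lower (23.7%). Scaled to the median log2 ratio of -0.16, the counts were 21 higher and 15 lower. zbtb18 was lower in Zn15, at 7183 CPM against 11215 CPM in Zn10, a log2 ratio of -0.64 (0.502 to 0.819), while in the other barcodes it was at 0.18. tnrc18 was lower as well, at -1.14 (0.238 to 0.858), and nrxn1a at -0.70 (0.389 to 0.981). hsp70.3 and hsp90aa1.2 were higher in Zn15, at 1.57 and 1.35, with 23.3% and 24.3% of their Zn15 UMIs in 1 barcode. Over the heat shock list, 4 Zn15 granule neurons held 226 of the 326 UMIs. The remaining Zn15 granule neurons stood at 5409 CPM for that list, against 7121 CPM in all Zn10 granule neurons. gabrb2a, too sparse for the 30 UMI minimum against Ctrl in Zn10 and noticed after its values were seen, had 2 UMIs in Zn10, 19 in Zn15 and 14 in Ctrl granule neurons.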

How the data were processed

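Single cells of zebrafish brain were profiled with the 10x Genomics droplet method, per the labels' protocols. The authors deposited unnormalised UMI counts, whole numbers per gene and barcode, written by Cell Ranger 4.0.0 per the file headers. fastp, Seurat and the build GRCz11 appear in the submitters' processing notes. Settings for calling cells and counting intronic reads, and the annotation release, are unstated there. The authors' gene tables pair 32057 Ensembl identifiers with symbols, of which 28988 were found in the gene name table. No coordinates or sequences are given, because no genome of that build was used.

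Counts were summed over the granule neuron barcodes of each library and divided by their total (CPM). Genes with at least 30 UMIs over both libraries of a comparison were called past 1.5-fold. Genes of the rule were left out of these calls, and a gene below 3 UMIs in a library was set to a floor of 3 counts there. Intervals are exact (Clopper-Pearson for shares, Poisson for CPM, conditional binomial for ratios), at 95%. They cover counting error only and are too narrow for genes whose UMIs cluster in few barcodes. Differences of log2 ratios carry normal intervals over 4 counts. With 1 library per treatment no test was possible. Thinning used a fixed seed. Marker lists came from textbook knowledge. The members, lists and rules were chosen with earlier results of these data known.

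Genes were named by rule: the genes of the rule, the 15 with the highest ratio to other barcodes, up to 10 in each direction against Ctrl whose interval left out 1 and with no barcode over 25% of the UMIs, the most abundant genes of each list, mt2, malat1 and hsp70l, and the 5 in each direction that differed most from the other barcodes. Other names are said to have been chosen after their values were seen, or are markers that check the cell type. The summing and interval steps were tested on simulated data. Python 3.11.15, numpy 2.4.6, scipy 1.17.1 and pandas 2.3.3 were used.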

Additional observations from a re-analysis of the deposited data

Results flagged for a closer look

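In 4 flagged cases a gene pointed one way in granule neuron barcodes and the other way in the remaining barcodes of the same 2 libraries. The granule neuron interval left out 1 in each. The difference was not tested, since each treatment had 1 library. eif4a1a had log2 ratios of -1.47 (Zn10 over Ctrl) and -1.02 (Zn15 over Ctrl) in granule neurons, against 0.11 and 0.22 in the other barcodes. gpm6ab had a log2 ratio of 0.72 for Zn15 over Ctrl in granule neurons, against -0.27 in the other barcodes, and -0.26 in granule neurons with at least 200 genes. hsp70.1 had 1.69 for Zn15 over Ctrl in granule neurons, against -0.47, and 1 Zn15 barcode held 48.6% of its UMIs. Without the top barcode of each library hsp70.1 was at 1.24. The flagged cases are not all that pointed apart. For Zn10 over Ctrl, tnrc18 was at 1.70 in granule neurons against -0.11, and si:ch73-1a9.3 at 0.84 against -0.02.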

How the results depend on the processing

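The share of granule neurons was higher in Zn10 and Zn15 than in Ctrl under every alternative run except 1: with at least 200 genes per barcode the Zn10 to Ctrl ratio was 0.994, and the Zn15 to Zn10 ratio was 1.67. With 2 or more fat2 UMIs the ratios to Ctrl were 3.76 for Zn10 and 3.05 for Zn15. A limit of 30% mitochondrial UMIs removed no barcode. Such UMIs, counted only over symbols that start with mt-, made up 0.0807% in Zn10, 0.198% in Zn15 and 0.203% in Ctrl. That setting could therefore not move a share. Counts of genes past 1.5-fold depended on the minimum and the depth, because fewer or more genes were tested. These counts stand without the number tested, so they do not show whether the share of genes called changed. Given for Zn10 over Ctrl first, then for Zn15 over Ctrl, and last for Zn15 over Zn10, with higher before lower, they were 123 and 87, 138 and 136, and 98 and 138 at 10 UMIs. At 100 UMIs they were 2 and 0, 1 and 1, and 0 and 1. With no minimum they were 304 and 115, 169 and 358, and 99 and 291, a setting in which the floor decides many genes. With 200 genes per barcode they were 4 and 6, 10 and 7, and 8 and 4. With 2 fat2 UMIs they were 1 and 0, 4 and 1, and 3 and 2. Without granule neurons holding oligodendrocyte or microglia UMIs they were 12 and 9, 10 and 7, and 19 and 14. Thinned to 200 UMIs they were 2 and 2, 3 and 2, and 6 and 2, and at 130 UMIs, an alternative added after the values were seen, 3 and 0, 5 and 1, and 5 and 1. Without the top barcode of each gene they were 9 and 8, 10 and 12, and 15 and 15. Without the deepest barcode of each library, also added later, 11 genes were lower for Zn15 over Ctrl. Scaled by the median of ratios, 10 were higher for Zn10 over Ctrl.

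Some single values turned round, and the cause was not tested. For Zn10 over Ctrl, hsp90aa1.2 was at 0.19 (log2) at 130 UMIs, khdrbs1a at -1.13 and zgc:92107 at -0.33 with 2 fat2 UMIs, and the summed oligodendrocyte list at 0.57 without the deepest barcodes. For Zn15 over Ctrl, gpm6ab was at -0.26 with 200 genes and -0.25 with 2 fat2 UMIs, where hsp70.1 was at -0.70 and nat8l at -1.19. nova2 was at -0.10 thinned to 200 UMIs. sqstm1 was at -0.23 and the summed antioxidant list at -0.51 without barcodes holding oligodendrocyte or microglia UMIs. No paired analysis was possible because each treatment had 1 library. Depth limits all of this: most genes had fewer than 30 UMIs over 2 libraries, and a treatment cannot be told apart from its library.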
